A study of Mus musculus with 4 samples.

Results

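Conventional dendritic cells (cDC) of subcutaneous LLC tumors, a mouse Lewis lung carcinoma line grown under the skin, were described by single-cell RNA sequencing. Tumors were carried by C57/BL6N mice aged 6 to 8 weeks. The hypofractionated radiotherapy group (RT) had received 24 Gy as 3 fractions of 8 Gy and comprised 3 tumors, each made into its own library (RT1 to RT3). The radiation naive group (NT) was mock treated and comprised 1 library in which 3 tumors had been pooled, and all tumors were taken at 72 h. Tumor-bearing animals only were sampled, and the unirradiated animals entered a single library, so no spread between NT animals could be measured and no RT value was tested against NT.

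No cell annotation was used. A cell barcode was counted as a cDC when it had at least 200 detected genes, at most 20% of its unique molecular identifiers (UMIs, the counted molecules) from mitochondrial genes, at least 2 UMIs summed over Flt3, Cd209a, Zbtb46, Xcr1 and Clec9a, and at least 5 UMIs summed over the major histocompatibility complex (MHC) class II genes H2-Aa, H2-Ab1, H2-Eb1 and Cd74. It also had no UMI of Ccr7, at most 1 UMI of Rhox5, which marks LLC tumor cells, and at most 2 UMIs of the complement genes C1qa, C1qb and C1qc, which mark macrophages. In all, 107 of 55058 kept barcodes met these conditions, namely 23 in NT, 21 in RT1, 51 in RT2 and 12 in RT3. The cells were thus chosen by the measured levels of these genes, which are given below as a description without a test.

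Conventional dendritic cells take up antigen in tissue, carry it to lymph nodes and prime T cells. They depend on the growth factor receptor Flt3 and express the transcription factor Zbtb46. Type 1 cells need Irf8 and Batf3, carry Xcr1 and Clec9a and are known for presenting antigen of dead cells on MHC class I, whereas type 2 cells carry lectins such as Cd209a, Clec10a and Mgl2 and are known for presenting to CD4 T cells. After taking up antigen or sensing danger signals, both types switch on Ccr7, the receptor that guides them to lymph nodes, together with Fscn1, Ccl22 and co-stimulatory genes.

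Among the 107 cDC, Cd209a, the type 2 lectin, was detected in 61 cells (57.0%), and Flt3 in 44 cells (41.1%). Zbtb46 was detected in 32 cells (29.9%), Clec9a, a receptor for dead cells, in 20 (18.7%), and the chemokine receptor Xcr1 in 12 (11.2%). In barcodes with at least 5 Rhox5 UMIs, which should not express these genes, the same shares were 0.0695% for Cd209a, 0.486% for Flt3, 5.93% for Zbtb46, 0.0304% for Clec9a and 0.00869% for Xcr1 among 23027 barcodes, although those tumor barcodes were deeper. Single-marker cells prevailed, since 60 cDC carried 1 of the 5 genes, 35 carried 2, 9 carried 3 and 3 carried 4. Cd209a alone made up 43 cells, the combination of Flt3 and Cd209a 9, Flt3 alone 7 and Zbtb46 alone 5.

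At the boundary of the gate, 39 cDC had exactly 2 marker UMIs and 105 barcodes that met every other condition had 1. Just inside, Cd209a was detected in 38.5%, Flt3 in 38.5%, Clec9a in 23.1%, Zbtb46 in 20.5% and Xcr1 in 10.3% of cells. Just outside, the shares were 38.1%, 21.9%, 12.4%, 25.7% and 1.90% in the same order. Naaa, a lysosomal amidase that the gate did not use, reached 1697, 1859, 1837 and 2308 CPM (UMIs of a gene scaled to an equal total per library and population) in the cDC of NT, RT1, RT2 and RT3, and 449, 888, 836 and 1301 CPM in the barcodes just outside.

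The label was examined with genes outside the gate. Itgax (CD11c), the integrin carried by most dendritic cells, was at 553, 418, 234 and 394 CPM in NT, RT1, RT2 and RT3 and was detected in 58 cells. Cbfa2t3, a transcriptional corepressor of dendritic cell progenitors, was at 357, 251, 266 and 310 CPM and was detected in 56 cells, and Kmo, an enzyme of tryptophan breakdown, was detected in 39. Of markers of other cell types, several were not detected and others were. Siglech of plasmacytoid dendritic cells, Cd207 of Langerhans cells, Cd79a of B cells, Cd3d and Cd3e of T cells, Ncr1 of NK cells, S100a9 of neutrophils and Mertk of macrophages had 0 UMIs, which allows at most 3 of the 378647 cDC UMIs. Of 8 plasmacytoid genes, 5 were at 0, and the most abundant was Tcf4 with 39 UMIs; the list summed to 172, 41.8, 140 and 113 CPM. Of 12 macrophage markers, 11 had UMIs, led by Cd68 with 117, and they summed to 639, 710, 425 and 1126 CPM, against 7397, 10090, 9881 and 10616 CPM in the MHC class II macrophages described below. Of 9 monocyte markers, 8 had UMIs, led by S100a4 with 386, and they summed to 1549, 3049, 2356 and 3603 CPM, against 3423, 4695, 3844 and 4586 CPM in those macrophages, so that this list set the cDC apart less than the macrophage list did. In type 2 cells, defined below, the monocyte markers summed to 1570, 4503, 4173 and 6393 CPM. That was below the macrophages in NT and RT1 and above them in RT2 and RT3, so the list did not set type 2 cells apart. Of 6 B cell markers 1 had UMIs, Ighm with 16, summing to 49.2, 20.9, 42.1 and 56.3 CPM. Of 11 T and NK cell markers 4 had UMIs, led by Lck with 2, summing to 24.6, 0, 18.7 and 0 CPM, and of 7 neutrophil markers 3 had UMIs, led by S100a8 with 1, summing to 0, 20.9, 9.35 and 0 CPM. Langerhans cell markers (2 of 3 with UMIs, led by Epcam with 1) and mast cell markers (1 of 6, Hdc with 2) had 2 UMIs each. Among 4 tumor markers 3 had UMIs, led by Rhox5 with 14, with sums of 61.5, 125, 46.7 and 310 CPM. The gate itself held Rhox5 to at most 1 UMI per cell, so this sum was partly set by the rule.

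Most fibroblast transcripts of the NT cDC and most endothelial transcripts of the RT2 cDC came from single barcodes. Elsewhere the cDC held 3, 10 and 7 fibroblast marker UMIs in RT1, RT2 and RT3, and 2, 2 and 0 endothelial marker UMIs in NT, RT1 and RT3. One NT barcode with 11312 UMIs, 13.9% of all NT cDC UMIs, held 1322 of the 1323 UMIs that the NT cDC had for 6 fibroblast markers, among them 491 UMIs of Col1a1 and 507 of Col1a2. Its only gate marker was Zbtb46 with 2 UMIs, and it had 32 MHC class II UMIs but none of Ptprc (CD45), the pan-leukocyte gene, or Itgax. One RT2 barcode with 17321 UMIs, 8.10% of the RT2 cDC UMIs, held 61 of the 66 RT2 cDC UMIs of 4 endothelial markers, with 25 of Plvap and 16 of Cdh5, and again only Zbtb46 as gate marker (4 UMIs) and 0 UMIs of Ptprc. Both met the rule and were counted as members, and their effect is given beside the results they touched. Between 182 and 277 barcode sequences were shared by each pair of libraries. Of the cDC barcodes, 4 were also listed in another library and none was a cDC in both.

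The cDC were rare in all libraries, and their share did not separate RT from NT. They made up 0.231% of kept barcodes in NT (95% exact binomial interval 0.146 to 0.346%), 0.140% in RT1 (0.0865 to 0.214%), 0.340% in RT2 (0.253 to 0.447%) and 0.0797% in RT3 (0.0412 to 0.139%). The RT mean was 0.187% ± 0.136 (SD, n = 3), and the NT share lay within the range of the RT libraries. These intervals cover counting error only. As background, the same gate without its Rhox5 ceiling took 0.0801%, 0.0345%, 0.118% and 0.0796% of the tumor barcodes of NT, RT1, RT2 and RT3, so the RT3 share could not be told from the background of that library. Of the 4 intervals, that of RT2 alone lay above its background interval, which ended at 0.242%, and those of NT, RT1 and RT3 overlapped theirs. The median depth was 2342, 1888, 3513 and 2370 UMIs in the cDC and 9354, 7571, 10692 and 8130 UMIs in the tumor barcodes. When a type-defining UMI of Cd209a, Xcr1 or Clec9a was also required, the tumor background was 0.0200%, 0.0345%, 0.0336% and 0.0318%, while the cDC so defined made up 0.200%, 0.120%, 0.260% and 0.0797% of kept barcodes. In RT3 their interval of 0.0412 to 0.139% overlapped that of the background, 0.00386 to 0.115%, and in RT1 the interval of 0.0710 to 0.189% overlapped that of 0.00417 to 0.124%, whereas in NT and RT2 they did not overlap.

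Tumor cells took different parts of each library, so the share was also taken over barcodes with at most 1 Rhox5 UMI. It was then 0.726% in NT, whereas RT1 had 0.299%, RT2 0.684% and RT3 0.188%. The RT mean was 0.390% ± 0.260 (SD, n = 3), and each RT library was below NT. The NT interval of 0.460 to 1.09% overlapped that of RT2, 0.509 to 0.898%, and lay above those of RT1 and RT3, which ended at 0.456% and 0.329%. After each barcode was thinned to 2000 UMIs and shallower ones were left out, 9, 7, 29 and 6 cDC remained and the shares were 0.113% in NT and 0.0671%, 0.260% and 0.0575% in the RT libraries. With thinning NT again lay inside the RT range.

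Of the 107 cDC, 28 were type 1 (a UMI of Xcr1 or Clec9a and none of Cd209a), 61 were type 2 (a UMI of Cd209a and none of Xcr1 or Clec9a), none had both, and 18 had neither. Type 1 numbered 4, 5, 15 and 4 cells and type 2 numbered 16, 13, 24 and 8 in NT, RT1, RT2 and RT3. Type 1 thus made up 20% of typed cDC in NT (exact interval 5.73 to 43.7%) and 27.8% (9.69 to 53.5%), 38.5% (23.4 to 55.4%) and 33.3% (9.92 to 65.1%) in the RT libraries, with an RT mean of 33.2% ± 5.34 (SD, n = 3). Each RT library was above NT, and the NT counting interval covered all 3 RT values; the difference was not tested. The 18 untyped cells were 3, 3 and 12 in NT, RT1 and RT2, and they held Irf8 at 839, 1274 and 873 CPM and Naaa at 1090, 2039 and 1565 CPM. The barcodes with fibroblast and endothelial transcripts were both among the untyped cells, and without them Irf8 was at 1436, 1274 and 1222 CPM and Naaa at 2074, 2039 and 2190 CPM.

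**Figure D1:**
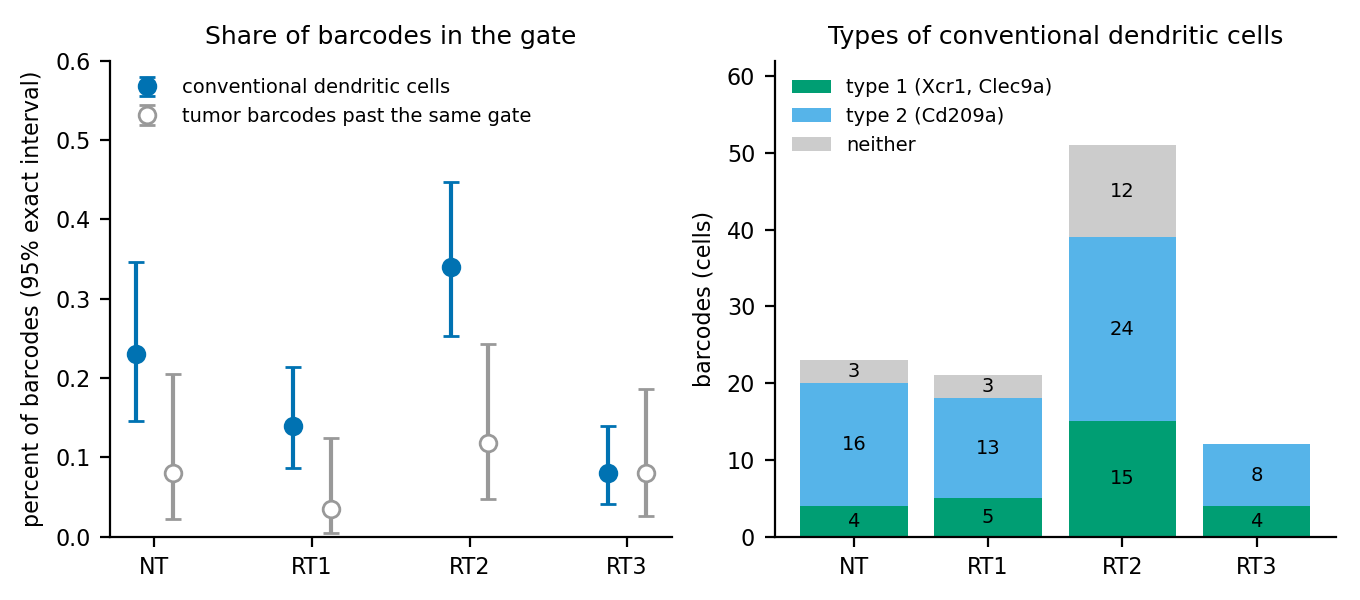
Number and kind of cDC by library. The left part plots the share of cDC among kept barcodes in percent (filled circles) beside the share of tumor barcodes that met the same gate (open circles), with 95% exact binomial intervals, and the right part plots the number of type 1, type 2 and untyped cells in each library. RT2 at 0.340% held the largest share and RT3 at 0.0797% the smallest, with NT at 0.231% between them, and in RT3 the background at 0.0796% was level with it.

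Type 1 and type 2 cDC differed in genes that had not been used to separate them, with Irf8, Wdfy4 and Stmn1 higher in type 1 and Mgl2, Cxcl10 and Il1b higher in type 2. With UMIs summed by library and type and the library as a block, 357 genes were tested, 24 (6.72%) were higher in type 1 and 45 (12.6%) were lower at an adjusted p under 0.05 by edgeR's quasi-likelihood test with Benjamini-Hochberg adjustment. At an unadjusted p under 0.05 there were 58 and 66. The median log2 fold change of all genes tested was 0.04. Type 1 cells were deeper than type 2 cells, with median depths of 5172, 2916, 4947 and 3992 UMIs against 1896, 1810, 3310 and 1976 UMIs in NT, RT1, RT2 and RT3, and detection of a marker depends on depth; the part of depth in these differences was not tested. RT2 held 15 of the 28 type 1 cells, and without it 12 of the 24 and 20 of the 45 calls were kept.

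Irf8, the transcription factor on which type 1 cells depend, was at 1460, 735, 1792 and 944 CPM in type 1 cells of NT, RT1, RT2 and RT3 and at 108, 114, 171 and 57.1 CPM in type 2 cells. Its levels did not overlap, with a log2 fold change of 3.38 ± 0.31 (SE, n = 4 libraries) and an adjusted p of 0.000867 (edgeR's quasi-likelihood test). Wdfy4, needed for cross-presentation, was at 1070, 1396, 1052 and 1110 CPM in type 1 cells against 108, 0, 171 and 228 CPM in type 2 cells, and its log2 fold change was 3.07. Of the 6 genes tested from a list of 19 type 1 genes, 4 were higher in type 1, namely Irf8, Wdfy4, Sept3 (log2 fold change 2.49), a septin, and Naaa (1.11), and none was lower. The Naaa call was lost by DESeq2 (adjusted p = 0.0513) and without RT1, RT2 or RT3, and at 1946 against 1950 CPM Naaa did not differ in NT. Of the type 1 genes too sparse to test, Tlr3, the receptor for double-stranded RNA, was at 292, 221, 195 and 167 CPM in type 1 cells and had 2 UMIs in type 2 cells. Itgae (CD103) had 31 UMIs in type 1 and 1 in type 2 cells, and the inhibitory receptor Btla had 29 and 2.

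All 4 tested genes of the 25-gene proliferation list were higher in type 1 cells. Stmn1, a microtubule regulator of dividing cells, was at 1314, 1396, 520 and 611 CPM against 108, 151, 13.1 and 114 CPM, a log2 fold change of 3.52 ± 0.43 (SE, n = 4 libraries; edgeR's quasi-likelihood adjusted p = 0.00127). The chromatin protein Hmgb2 (log2 fold change 2.75), the replication clamp Pcna (1.53) and the histone gene H2afz (1.49) were the others. Tubb5, a tubulin (2.36), Dek, a chromatin protein (1.77), and Ran, a nuclear transport GTPase (1.72), were also among the 10 largest differences. Mki67 was too sparse to test, with 243, 147, 143 and 333 CPM in type 1 cells and 0, 37.8, 13.1 and 57.1 CPM in type 2 cells. The same order of the types was seen in each library for all of these genes. Mpeg1, a pore-forming protein of phagosomes (2.15), and Cst3, the protease inhibitor cystatin C (1.89), completed the list, and Cst3 was at 2190, 6394, 9053 and 3387 CPM against 1516, 643, 1627 and 1313 CPM.

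The 45 genes lower in type 1 cells included the following. Mgl2 (CD301b), a lectin of type 2 cells, was at 0, 0, 13 and 167 CPM in type 1 cells and at 2789, 2384, 643 and 2226 CPM in type 2 cells, a log2 fold change of -5.37 ± 0.53 (SE, n = 4 libraries; edgeR's quasi-likelihood adjusted p = 0.000867). It was the single call among 2 genes tested from the list of 18 type 2 genes. The inhibitory Fc receptor Fcgr2b had a log2 fold change of -3.57, and Lilrb4a, an inhibitory immunoglobulin-like receptor, of -3.50. Of 4 chemokine genes tested, 3 were lower in type 1. Cxcl10, an interferon-induced attractant of T cells, was at 487, 808, 2104 and 167 CPM in type 1 cells and 5118, 8665, 8661 and 8676 CPM in type 2 cells (log2 fold change -3.30), and the chemokine Ccl6 followed at -4.90. Il1b, the gene of interleukin-1 beta, was at 4136, 1984, 1234 and 1943 CPM against 8177, 8552, 5879 and 5879 CPM (-1.76). Lysozyme Lyz2 (-3.25), S100a4 (-2.98), the AP-1 subunit gene Fosl2 (-2.90), the membrane protein gene Emp1 (-2.84) and the nuclear receptor gene Nr4a3 (-2.67) completed the 10 largest differences. Macrophage and monocyte markers moved with the type. The 12 macrophage markers, led by Cd68, summed to 97.3, 220, 247 and 333 CPM in type 1 and 1002, 832, 800 and 1941 CPM in type 2 cells. The 9 monocyte markers, led by Plac8 in type 1 and by S100a4 in type 2, summed to 487, 294, 1377 and 888 CPM against 1570, 4503, 4173 and 6393 CPM, and their part in these differences was not tested.

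For antigen presentation, 2 of 7 MHC class I genes tested were higher in type 2 cells, with B2m, the shared light chain, at 1898, 2058, 2260 and 1333 CPM in type 1 against 5442, 3292, 3504 and 4224 CPM in type 2 (log2 fold change -1.13), and H2-D1 at -0.80, a call that was lost by DESeq2. Ctss, the protease that trims the class II invariant chain, was lower in type 1 by a log2 fold change of -1.58. Of 3 p53 target genes tested, 2 were lower in type 1, and Cdkn1a, the cell cycle inhibitor p21, was at 97.3, 147, 416 and 167 CPM against 677, 984, 1876 and 1142 CPM (-2.45). Of 12 immediate early and heat shock genes tested, 1 was lower. Sirpa and Irf4, both carried by type 2 cells, had 0 UMIs in type 1 and 27 and 14 UMIs in type 2 cells, and Csf1r had 1 and 51 UMIs. Il12b had 0 UMIs in either type. Reads of closely related genes, such as the MHC class I genes and the CC chemokines, can be split by the counting, so these values are less certain.

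**Figure D2:**
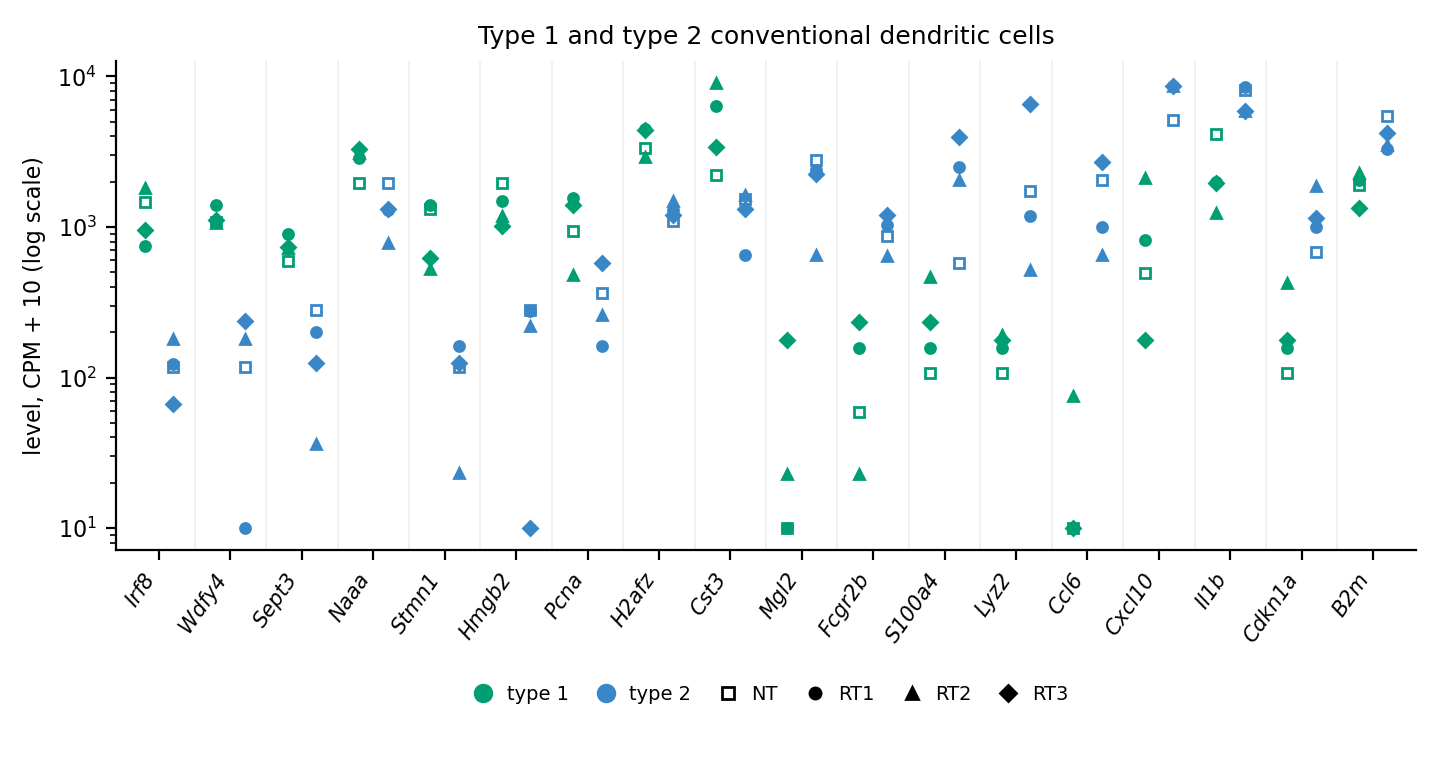
Levels of genes outside the gate in type 1 and type 2 cDC. The vertical axis is the level as CPM of summed UMIs plus 10 on a log scale, and each symbol is 1 library (open square NT, filled symbols RT1 to RT3). Irf8 lies between 735 and 1792 CPM in type 1 and between 57.1 and 171 CPM in type 2, whereas Mgl2 and Cxcl10 are higher in type 2 in each library.

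The population most like the cDC was the set of 38 barcodes that met the same conditions but held at least 1 UMI of Ccr7, here called Ccr7 dendritic cells. They numbered 6, 7, 17 and 8 in NT, RT1, RT2 and RT3, which was 20.7%, 25.0%, 25.0% and 40.0% of cDC and Ccr7 dendritic cells together, with an NT interval of 7.99 to 39.7% that overlapped those of the RT libraries. Against Ccr7 dendritic cells 658 genes were tested, 13 (1.98%) were higher in cDC and 35 (5.32%) were lower (edgeR's quasi-likelihood test, adjusted p under 0.05), with 56 and 79 at an unadjusted p under 0.05. Without the barcodes with fibroblast and endothelial transcripts all 13 and 34 of the 35 calls were kept, and the other, the class I gene H2-Q7, was too low to be tested. Without RT3, 2 of the 13 and 15 of the 35 calls were kept, and without the library block there were 2 and 20 calls. Without the 15 cDC and 10 Ccr7 dendritic cells holding at least 2 UMIs of B, T and NK, neutrophil, fibroblast or endothelial markers there were 5 and 20. In the Ccr7 dendritic cells of NT, RT1, RT2 and RT3, tumor markers summed to 0, 51.5, 1037 and 148 CPM, with 79 of the 102 UMIs of RT2 being Hmga2 of 1 barcode, and fibroblast markers to 0, 51.5, 91.5 and 690 CPM. Their part in the differences was not tested for the tumor markers.

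Of 6 tested genes of a 24-gene maturation list, 5 were lower in cDC, and the list's median log2 fold change was -2.82 against 0.04 for all genes tested. Ccl22, the chemokine of mature dendritic cells, had 3 UMIs in the cDC and 131 in the Ccr7 dendritic cells, a ratio of 99.9 (95% counting interval 33.5 to 491). It was at 24.6, 0, 4.67 and 0 CPM in cDC and at 693, 412, 752 and 1478 CPM in Ccr7 dendritic cells. Cd63, a tetraspanin that is also on the macrophage list and was at 950, 1360, 1294 and 1277 CPM in tumor barcodes, was at 135, 62.7, 18.7 and 28.1 CPM against 839, 567, 966 and 690 CPM (log2 fold change -4.00 ± 0.51, SE, n = 4 libraries; edgeR's quasi-likelihood adjusted p = 0.000467). The granzyme B inhibitor gene Serpinb9 (-4.28), the small GTPase gene Arl5c (-3.87), Tmem123 (-3.38), the 4-1BB ligand gene Tnfsf9 (-3.06), the chemokine genes Ccl5 (-2.93) and Cxcl16 (-2.74), Marcksl1 (-2.71) and Glipr2 (-2.36) were, with Ccl22 and Cd63, the 10 largest differences. Cd274, the gene of the checkpoint ligand PD-L1, was at 98.4, 125, 313 and 281 CPM in cDC and at 1131, 206, 803 and 345 CPM in Ccr7 dendritic cells (-1.70), and this call was lost by DESeq2 (adjusted p = 0.0760).

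Higher in cDC were Naaa, at 1697, 1859, 1837 and 2308 CPM against 328, 567, 488 and 443 CPM (log2 fold change 2.00 ± 0.26, SE, n = 4 libraries; edgeR's quasi-likelihood adjusted p = 0.000493), and the matrix protein gene Tgfbi (2.08). These were the 2 calls kept when any single library was left out. Pcna (1.82), the chemokine genes Ccl3 (1.77) and Ccl4 (1.41), the sodium pump subunit gene Atp1b3 (1.65), the integrin chain gene Itgb2 (1.6), the surface glycoprotein gene Cd24a (1.56), the lysosomal gene Psap (1.38) and the leukotriene synthesis gene Alox5ap (1.22) were also higher. DESeq2 did not call Cd24a (adjusted p = 0.0762), Alox5ap (0.0762) or Ccl3 (0.0503). Of 13 immediate early genes tested, 3 were higher in cDC, namely Fos (1.19), Dusp1 (0.97) and Atf3 (0.94). Among list members, none of 4 pan-cDC genes, 3 class II processing genes or 11 class I genes passed the test in either direction. The class I gene H2-Q7, one of the genes lower in cDC, was not on the class I list.

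MHC class II macrophages were the second population compared. They were 1973 barcodes with at least 10 UMIs of C1qa, C1qb and C1qc, the same class II floor, no Ccr7 and none of the 5 cDC markers, and their median depth was 4287, 4070, 5481 and 3357 UMIs. Of 6334 genes tested, 551 (8.70%) were higher and 955 (15.1%) were lower in cDC (edgeR's quasi-likelihood test, adjusted p under 0.05), with 826 and 1273 at an unadjusted p under 0.05 and a median log2 fold change of -0.09. Without RT2 there were 275 and 590 calls, and DESeq2 gave 362 and 679. Without the barcodes with fibroblast and endothelial transcripts 528 of the 551 and 953 of the 955 calls were kept, and the call of the collagen gene Col3a1 (log2 fold change 2.39) was lost (edgeR's quasi-likelihood adjusted p = 0.766).

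Of the genes of dendritic cell identity that the gate had not used, pan-cDC and type 1 genes were higher in cDC more often than lower, and type 2 genes were not. Of 12 tested pan-cDC genes 9 were higher and none was lower, and of 15 tested type 1 genes 11 were higher and 1, Id2, was lower. Itgax was at 158, 105, 49.1 and 83.2 CPM in macrophages, below the cDC values given above in each library (log2 fold change 1.73 ± 0.22, SE, n = 4 libraries; edgeR's quasi-likelihood adjusted p = 1.88e-07). Sept3 was at 332, 480, 393 and 422 CPM in cDC and had no UMI in macrophages, which made it at least 1416-fold higher against a floor of 3 UMIs over the whole macrophage group. By the same floor Itgae was at least 428-fold and Btla at least 352-fold higher. Of the 37 Btla UMIs in cDC, 27 were in RT2, so the Btla bound rests mostly on that library. Plet1, a surface protein gene, was at 357, 919, 477 and 1576 CPM against 1.26, 3.59, 2.17 and 6.34 CPM (7.52), and the chemokine gene Ccl17 at 135, 209, 42.1 and 141 CPM against 0, 0.513, 0.334 and 0.792 CPM (7.39). Cd24a (6.34), the peptidase gene Dpp4 (6.28), the adaptor gene Ap1s3 (6.14), H2-Ob (6.01) and Klrd1 (5.95), a lectin-like receptor gene of NK cells and some dendritic cells, completed the 10 largest. Of 13 tested type 2 genes none was higher and 6 were lower, namely Clec4a2, Csf1r, Itgam, Sirpa, Clec12a and Klf4. These tests took all cDC together. Over the 18 type 2 genes, type 2 cells summed to 6932, 6887, 4383 and 5423 CPM in NT, RT1, RT2 and RT3. Macrophages summed to 4143, 5604, 4766 and 4936 CPM, which was below type 2 cells except in RT2. Type 2 cells alone were not tested against macrophages. Clec10a was at 61.5, 313, 234 and 450 CPM in cDC and at 146, 229, 181 and 353 CPM in macrophages and did not pass the test (log2 fold change -0.21; edgeR's quasi-likelihood adjusted p = 0.605).

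The antigen presentation genes went in both directions. Of 8 class II processing genes, 4 were higher in cDC, namely H2-Ob, H2-DMb2, H2-DMb1 and Ciita, the master regulator of class II genes, and 3 were lower, namely the lysosomal enzymes Lgmn, Ctss and Ifi30. H2-DMb2 was at 455, 251, 182 and 338 CPM against 14.4, 10.3, 10.7 and 7.92 CPM (log2 fold change 4.33), and Lgmn at 61.5, 0, 60.8 and 28.1 CPM against 1244, 1480, 1414 and 1844 CPM (-5.24). Of 18 class I genes, 4 were higher, namely the peptide transporter genes Tap1 and Tap2 and the immunoproteasome genes Psmb8 and Psmb9, and 5 were lower, B2m among them at 5336, 2736, 2955 and 2758 CPM against 7446, 8540, 8213 and 8800 CPM (-1.66).

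All 12 macrophage markers were lower in cDC, with Apoe at 0, 20.9, 18.7 and 0 CPM against 1342, 2188, 3007 and 3202 CPM (log2 fold change -7.94), and 1 of 8 monocyte markers, Plac8, was higher and 4 were lower. The genes at 0 UMIs in all cDC with the largest differences were the scavenger receptor gene Stab1 (at least 40.0-fold lower against a floor of 3 UMIs over the cDC), the protease genes Mmp9 (34.3) and Mmp13 (30.4), Aoah (25.0), the chemokine gene Ppbp (16.8), Itsn1 (13.7), Il10 (10.6), Lyve1 (10.3), Arc (9.36) and Stard8 (8.92). RT2 held 2221 of the 2933 macrophage UMIs of Mmp9 and 627 of the 800 of Arc, so these 2 bounds rest mostly on that library. Of 16 chemokine and receptor genes 13 were lower, and 1, Ccl17, was higher. The monocyte attractants Ccl8 (-7.58), Ccl7 (-5.44) and Ccl2 (-3.76) were lower, and Ccl8 was at 73.8, 20.9, 9.35 and 0 CPM in cDC against 1641, 5805, 4349 and 5428 CPM in macrophages. Of 10 cytokine genes 6 were lower and 2 were higher, namely Il6 and Il1b, the latter at 5545, 5451, 2908 and 3884 CPM against 2413, 920, 1366 and 608 CPM (1.52). Of 24 proliferation genes 18 were higher in cDC and none was lower, and Top2a was at 258, 251, 140 and 366 CPM against 122, 35.9, 17.4 and 34.9 CPM (2.13). The 25 genes of the list summed to 12554, 13669, 7923 and 13548 CPM in type 1 cells. In type 2 cells the sums were 2274, 2535, 2336 and 2854 CPM, against 3752, 1499, 1409 and 1625 CPM in macrophages. Type 2 cells were thus below macrophages in NT and above them in the RT libraries. Of 27 interferon response genes 9 were lower and 1 was higher, of 13 sensing genes 7 and 2, of 16 p53 target genes 8 and 1 (Pmaip1, 1.94), and of 15 immediate early genes 9 and 1.

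**Figure D3:**
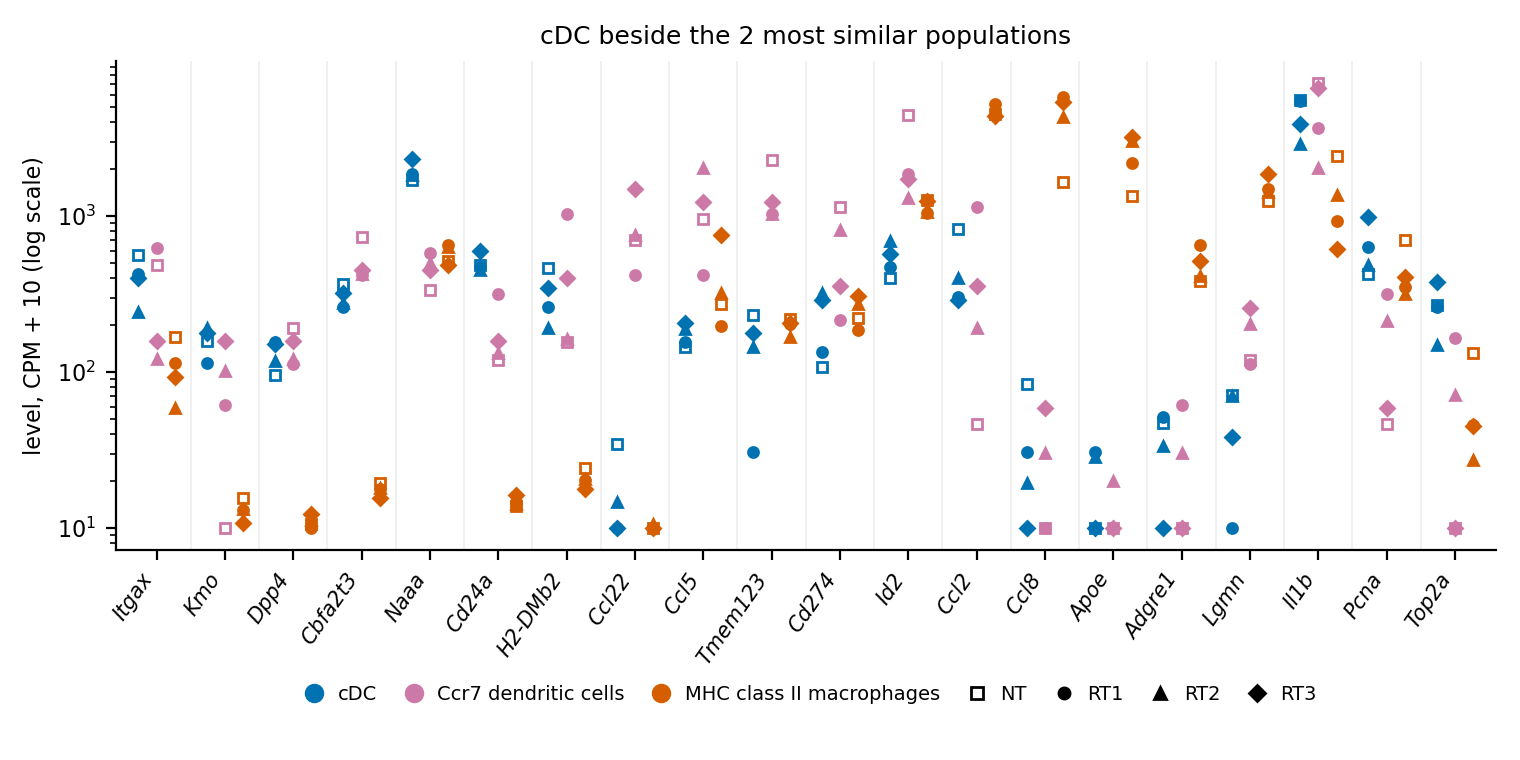
Levels of chosen genes in cDC, Ccr7 dendritic cells and MHC class II macrophages. The vertical axis is CPM of summed UMIs plus 10 on a log scale, and each symbol is 1 library (open square NT, filled symbols RT1 to RT3). Naaa separates cDC at 1697 to 2308 CPM from both other populations, Ccl22 is highest in Ccr7 dendritic cells, and Apoe and Ccl8 are highest in macrophages.

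To ask how cDC of irradiated tumors differed from those of radiation naive tumors, the UMIs of all cDC of a library were summed, and 1 UMI was worth 12.3, 20.9, 4.67 and 28.1 CPM in NT, RT1, RT2 and RT3. A gene passed the size rule when its log2 ratio of CPM plus 10 was at least 1 in size and of the same sign in all 3 RT libraries against NT and the 95% Poisson intervals did not overlap. This compares 3 RT libraries with 1 NT library and carries no test. Of 3117 genes, 7 (0.225%) were higher and 35 (1.12%) were lower in RT. The median log2 ratio of all these genes was -0.18, and 24.5% of the genes were above and 33.3% below NT in every RT library.

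Most of the lower genes came from the NT barcode with fibroblast transcripts. The largest were Col1a1 (6037 CPM in NT and 0, 4.67 and 0 CPM in RT), Col1a2, Fstl1, Col3a1, Thbs2, Igfbp5, Mgp, Col6a1, Col5a2 and Col5a1, all genes of matrix or secreted fibroblast proteins. Of the 35, 32 had over 50% of their NT UMIs in 1 cell and 24 had at least 90%. Of the 193 NT UMIs of Cxcl9, 158 were in that barcode, and of the 67 of Ccl2, 56. Without this barcode and the RT2 barcode with endothelial transcripts, 5 genes were higher and 5 were lower, among which were 5 of the 7 and 3 of the 35. Cxcl9 went from 2373 to 500 CPM in NT, against 104, 967 and 535 CPM in RT, and Ccl2 from 824 to 157 CPM, against 292, 412 and 281 CPM, so that neither passed the rule.

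The 5 genes that were higher with and without those barcodes were Dusp2, S100a4, Clec10a, Gabarap and Tpm3, of which Clec10a did not pass without the 15 cDC holding other cell types' markers (71.4 CPM in NT and 339, 211 and 390 CPM in RT). Dusp2, a phosphatase gene induced on activation, was at 57.1 CPM in NT and 794, 473 and 338 CPM in RT without the 2 barcodes. In all kept barcodes it was at 346 CPM in NT and 532, 634 and 493 CPM in RT, in tumor barcodes at 313 CPM and 566, 675 and 494 CPM, and in macrophages at 348 CPM and 205, 337 and 223 CPM. S100a4 was at 307 CPM in NT and 1545, 1000 and 2055 CPM in RT with all members. It belongs to the monocyte marker list, whose median log2 ratios over 5 genes were 0.98, 0.73 and 1.24 in RT1, RT2 and RT3, and over 6 genes 1.09, 0.46 and 0.95 without the 2 barcodes; the part of monocytes in this result was not tested. Among all kept barcodes of the libraries S100a4 was at 3240 CPM in NT and 6438, 6584 and 6419 CPM in RT, and in macrophages at 363 CPM and 964, 1027 and 1045 CPM, so that NT was also lowest there. The lectin gene Clec10a was at 61.5 CPM and 313, 234 and 450 CPM, within type 2 cells at 135 CPM and 568, 591 and 742 CPM, and in macrophages at 146 CPM and 229, 181 and 353 CPM. Gabarap, an autophagy gene, was at 221 CPM and 814, 626 and 704 CPM, and Tpm3, a tropomyosin gene, at 381 CPM and 1128, 1043 and 1126 CPM. In all kept barcodes Gabarap was at 186 CPM in NT and 442, 566 and 394 CPM in RT, and Tpm3 at 423 CPM and 548, 579 and 524 CPM. The ribosomal gene Rpl9 (652 CPM and 1880, 1982 and 1492 CPM) and Wnt11 (0 UMIs and 146, 131 and 141 CPM) did not pass without the 2 barcodes, although their levels were then similar (743 CPM and 1880, 1943 and 1492 CPM for Rpl9, 0 UMIs and 146, 142 and 141 CPM for Wnt11). Rpl9 passed without the 15 cDC holding other cell types' markers (743 CPM and 1942, 1963 and 1526 CPM) and Wnt11 did not. Rpl9 in all kept barcodes was at 683 CPM and 2498, 2272 and 1851 CPM. In Ccr7 dendritic cells all of these genes were also above NT in each RT library. The NT value of Ccr7 dendritic cells rested on 6 barcodes, with 1 UMI worth 36.5 CPM. There Dusp2 was at 584 CPM in NT and 721, 1658 and 739 CPM in RT, and S100a4 at 182 CPM and 3297, 1424 and 2513 CPM. Clec10a was there at 146 CPM and 361, 193 and 444 CPM, and Wnt11 at 0 UMIs and 258, 81.4 and 591 CPM. Rpl9 and Tpm3 have near-identical copies in the annotation, and their counts can be split among them.

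Lower with and without those barcodes were the nuclear receptor gene Nr4a3 and the chaperone genes Dnajb1 and Hspd1. Nr4a3 was at 1119 CPM in NT and 334, 168 and 281 CPM in RT, in type 2 cells at 2085 CPM and 605, 289 and 457 CPM and in Ccr7 dendritic cells at 2846 CPM and 824, 661 and 542 CPM, whereas in macrophages it was at 55.3 CPM and 41.1, 27.9 and 99.0 CPM. Dnajb1 was at 1266 CPM in NT and 292, 505 and 253 CPM in RT, and Hspd1 at 689 CPM and 230, 285 and 253 CPM. In macrophages both were also above RT in NT, Dnajb1 at 493 CPM against 195, 387 and 265 CPM and Hspd1 at 289 CPM against 151, 133 and 166 CPM. Elsewhere Dnajb1 did not keep this order, at 584 CPM in NT and 206, 651 and 394 CPM in RT in Ccr7 dendritic cells, 771 CPM and 465, 980 and 721 CPM in tumor barcodes and 805 CPM and 450.4, 888 and 734 CPM in all kept barcodes. Hspd1 kept it, at 328 CPM in NT and 155, 315 and 148 CPM in RT in Ccr7 dendritic cells. It was at 957 CPM and 864, 720 and 902 CPM in tumor barcodes and 876 CPM and 716, 590 and 794 CPM in all kept barcodes. Nr4a2 (800 CPM and 83.5, 214 and 310 CPM) and the heat shock gene Hspa1b (11426 CPM and 5388, 4461 and 3462 CPM) passed only without those barcodes. Since NT was 1 library of 3 tumors, library and treatment cannot be told apart for any of these genes.

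**Figure D4:**
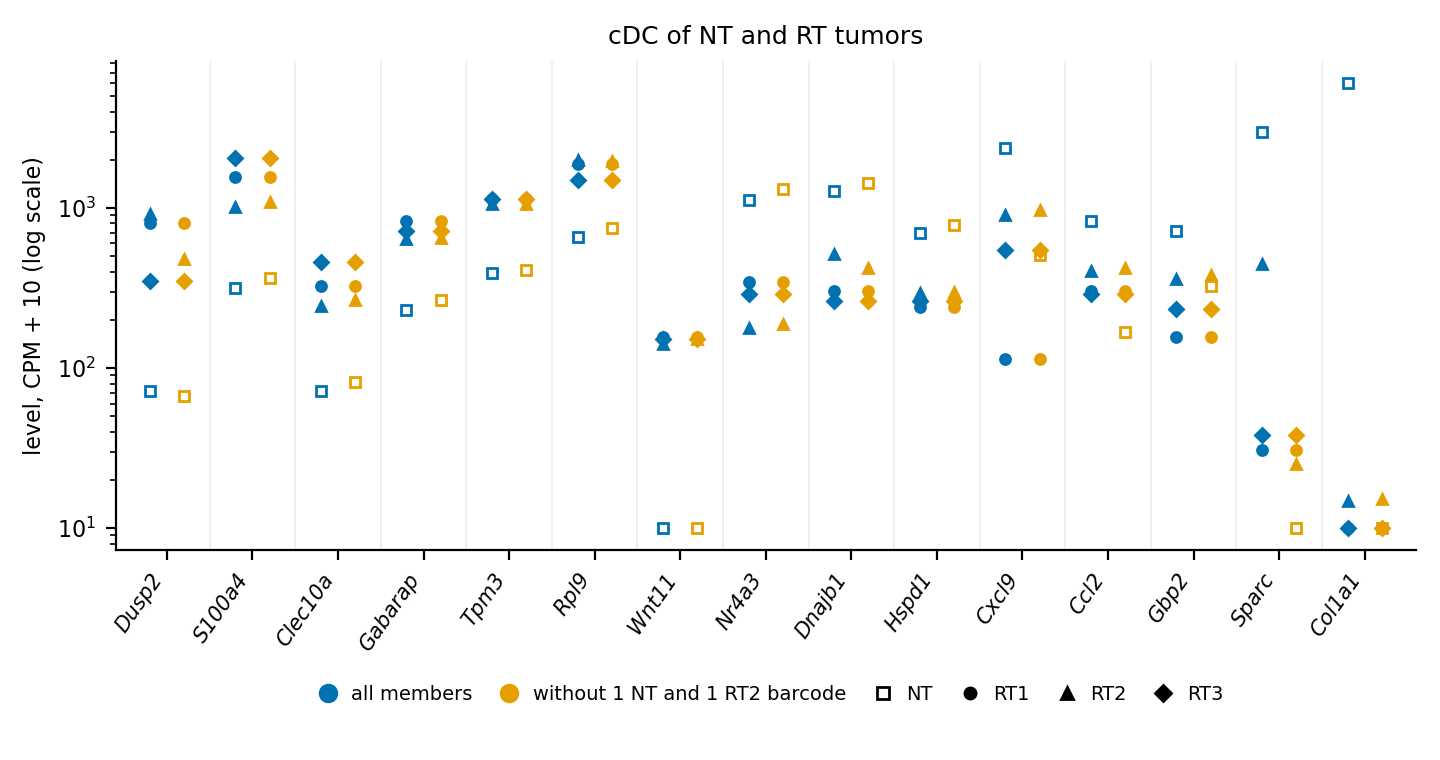
Genes of the RT against NT comparison in cDC, with all members and without the NT barcode with fibroblast transcripts and the RT2 barcode with endothelial transcripts. The vertical axis is CPM of summed UMIs plus 10 on a log scale, with open squares for NT and filled symbols for RT1 to RT3. S100a4, Clec10a, Gabarap and Tpm3 stay above NT in each RT library either way, whereas Col1a1 and Sparc in NT are at the floor of the plot without the barcode.

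Across the gene lists, few members passed the size rule. With all members, the medians of 14 lists with at least 5 genes above the floor of 50 CPM were above 0 in every RT library for 5 (type 1, pan-cDC, sensing, p53 target and monocyte genes) and below 0 for 3 (class I, class II processing and fibroblast genes). Without the 2 barcodes, sensing and monocyte genes stayed above 0 in every RT library and interferon response and cytokine genes joined them, whereas type 1 genes (-0.08 in RT1), pan-cDC genes (-0.09 in RT1 and -0.20 in RT3) and p53 target genes (-0.10 in RT3) did not, and class I genes alone stayed below 0. The 5 cytokine genes then had a median of 1.92 in RT1, 0.34 in RT2 and 0.28 in RT3. The counts below are to be read against all genes, of which 24.5% were above and 33.3% below NT in every RT library, or 21.5% and 35.2% without the 2 barcodes. The interferon response list had a median mean log2 ratio of -0.06 over 21 genes, with 6 above NT and 4 below it in every RT library, and 0.44 over 19 genes, with 9 above and 1 below, without the 2 barcodes. For that list the RT1, RT2 and RT3 medians without them were 0.51, 0.75 and 0.50, against -0.22 for the mean log2 ratio of all genes, and no member passed the size rule. Of 9 p53 target genes 4 were above NT and 1 below in every RT library with a median of 0.25 (3 and 1 with 0.04 without the 2 barcodes), and Cdkn1a was at 332 CPM in NT and 773, 1066 and 647 CPM in RT without passing the rule. In macrophages Cdkn1a was at 316 CPM and 1286, 2019 and 1275 CPM. Of 15 class I genes 5 were above and 8 below, with a median of -0.43 (-0.36 over 16 genes without the 2 barcodes), and of 8 class II processing genes 2 were above and 4 below, with a median of -0.41 (-0.35 over 7 genes, 2 above and 3 below, without the 2 barcodes, when the RT3 median was 0.10). B2m was at 3828 CPM in NT and 2736, 2599 and 2758 CPM in RT without them. Of 13 type 1 genes 7 were above and 3 below with a median of 0.23, and 5 and 3 with 0.05 without the 2 barcodes. Of 12 pan-cDC genes 5 were above and 4 below either way, and the median turned from 0.05 to -0.11 without them. Of 12 type 2 genes 5 were above and 3 below with a median of 0.53, and 5 and 4 with 0.37 without them. Of 11 maturation genes 3 were above and 4 below with a median of -0.21, and of 10 also 3 and 4 with -0.38 without them. Of 21 proliferation genes 8 were above and 4 below with a median of -0.03, and 6 and 5 with -0.20 without them.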

How the data were processed

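Single-cell libraries were made with the SeekOne kit from 4 samples, and the deposited tables hold whole UMI counts per gene and barcode. The submitters' processing notes name STAR 2.5.1b, Subread 1.6.4, featureCounts, Cell Ranger and the mouse build GRCm39, with no role for each; no coordinate or sequence is printed because no genome of that build was used here. The tables held 10141, 15346, 14994 and 15324 barcodes with 69667759, 78585759, 108699844 and 85660188 UMIs in NT, RT1, RT2 and RT3. They were joined on 18605 symbols, since the RT2 table listed those alone. No RT2 barcode had over 11.95% mitochondrial UMIs, so that table may have been filtered differently before deposit, which was not tested. The filters on genes and mitochondrial UMIs kept 9976, 15029, 14993 and 15060 barcodes. No doublet caller was run. Mx1, Mx2, Clec7a and Ms4a1 were not analysed here.

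UMI counts were summed by library and population and tested with edgeR 4.0.16 (glmQLFit, glmQLFTest, filterByExpr, TMM, library as a block, Benjamini-Hochberg over all genes tested) in R 4.3.3, without the gate genes. DESeq2 1.42.0 was an alternative. Both populations of a test came from the same 4 libraries, and p-values measure the spread between these. The script was tested on simulated data. RT was compared with NT by the size rule, over genes with at least 50 CPM in NT or in all RT libraries, with a pseudocount of 10 CPM; intervals are 95% exact binomial (Clopper-Pearson) or Poisson and cover counting error only. Fold changes of genes with 0 UMIs in a population are given as bounds against 3 UMIs. The genes named are gate genes, list members and the 10 largest per direction with the same sign in 4 libraries and a mean of at least 50 CPM; predicted genes were counted but not named. Ptprc was named after its values were seen. The members and lists were chosen with earlier results of these data known. The alternatives were other gates, filters, floors, pseudocounts, scalings and tests, thinning to 2000 UMIs and leaving out each library; leaving out the 2 barcodes with fibroblast or endothelial transcripts was chosen after the data were seen.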

Additional observations from a re-analysis of the deposited data

How the results depend on the processing

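The share of cDC in RT minus NT was -0.0440 percentage points, -0.335 over barcodes with at most 1 Rhox5 UMI and -0.230 without barcodes holding other cell types' markers, which were also taken out of the denominator; it was 0.0146 after thinning to 2000 UMIs and -0.121 to 0.00939 with an RT library left out, so its sign was not stable. This difference was -0.0261 with no Rhox5 UMI allowed and -0.0164 with at least 500 genes. The type 1 share in RT minus NT was 13.2 percentage points, 19.7 with no Rhox5 UMI allowed, 8.78 after thinning and 10.6 to 15.9 with an RT library left out. Of genes past the size rule in RT, 7 were higher and 35 lower. There were 3 higher and 4 lower with at least 3 marker UMIs, 17 higher with no C1q UMI, 0 higher and 5 lower after thinning, and 5 lower both without mixed barcodes and without the barcodes with fibroblast or endothelial transcripts. With an RT library left out, which leaves fewer conditions to meet, 11 to 30 were higher and 37 to 49 lower. The 5 lists above 0 in every RT library became 3 with at least 3 marker UMIs, at most 10% mitochondrial UMIs, at least 500 genes, no mixed barcodes, a floor of 20 CPM or TMM-scaled totals, 2 with a floor of 100 CPM and 1 after thinning, and ranged from 5 to 8 with a library left out. The 3 lists below 0 became 0 with at least 3 marker UMIs, 5 with no Rhox5 UMI, and 1 without mixed barcodes, without the barcodes with fibroblast or endothelial transcripts, or with a floor of 100 CPM, and ranged from 3 to 5 with a library left out.

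For type 1 against type 2, 24 and 45 genes were higher and lower, 78 and 163 with no filter on low counts, 15 and 24 with at least 3 marker UMIs, and 12 to 32 and 22 to 61 with a library left out, the lowest without RT2. Against Ccr7 dendritic cells, 13 and 35 became 67 and 79 with no filter, 2 and 20 without the library block, 5 and 17 with at least 3 marker UMIs, 7 and 20 with no C1q UMI, 5 and 20 without mixed barcodes, and 2 to 17 and 19 to 68 with a library left out, the lowest without RT3. Against macrophages, 551 genes higher became 362 by DESeq2, and with a library left out 275 to 602 were higher and 590 to 1048 lower, the lowest without RT2. The cause of these shifts was not tested. The other alternatives kept each count within 1.5 times the value given. No paired analysis was possible because NT was 1 library, and the RT numbers pair with nothing in it. With 12 to 51 cDC in a library, genes under the level of a few UMIs, such as Il12b, could not be compared.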
